A study of Mus musculus with 12 samples.

Results

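This account covers the effect of a skin-specific beta-catenin knockout on embryonic footpad skin at stage E16.5. Its members are 4 of the 12 arrays of the study, chosen by label as the 2 knockout and the 2 wild-type samples of that stage. All groups were footpad skin of C57BL/6 mouse embryos, and the groups at E15.5 and E17.5, again 2 knockout and 2 wild-type samples each, serve here as the comparison stages. The labels name neither the promoter that removed beta-catenin nor the deleted allele, and they leave unsaid whether the samples of a group were separate embryos or pools. The p-values here are therefore relative to a spread between samples that may be technical. On each array footpad RNA carried Cy3, and a common reference of pooled cell-line RNA mixed with 129ES cell RNA carried Cy5. Levels are therefore log2 ratios of footpad over reference, and differences are knockout minus wild type on that log2 scale.

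Beta-catenin is the protein through which canonical Wnt signalling reaches the nucleus: when a Wnt ligand binds its receptors, beta-catenin escapes degradation and acts with Tcf and Lef factors on target genes. It also links cadherins to the cytoskeleton at cell junctions. In mice, sweat glands form in the footpads, where thickenings of the embryonic epidermis grow down into the dermis as gland buds, and the title of the study places Wnt at the head of a cascade with Eda and Shh. Whole skin holds epidermis, dermis, vessels and other tissue, so in these bulk samples fewer cells of a type and less RNA per cell cannot be told apart.

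The array files name probes by manufacturer codes with 60-base sequences and pair none with a gene, so results are given by probe. The targeted transcript could not be located, and the genotype labels were not checked against it. Of 42006 probes, 30206 were tested: Cy3 was well above background on at least 2 of the 12 arrays, and no array held an outlier spot. Cy3 was well above background at 72.4% and 70.8% of probes on the knockout arrays of E16.5 and at 69.2% and 69.6% on the wild-type arrays. Across the tested probes, levels correlated at 0.986 between the knockout arrays, at 0.979 between the wild-type arrays and at 0.968 to 0.978 across genotypes. The E16.5 arrays lay on 1 slide, knockout at positions 1 and 2 and wild type at 3 and 4, so genotype and position cannot be told apart.

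The probes below carry the main findings and are printed 5′ to 3′ as the array files give them. The first 4 were lower in the knockout and kept their call in nearly all reprocessing settings, and Z00028697-1 was near the same high level in both genotypes at E17.5. Z00043839-1, Z00026847-1, Z00011465-1 and Z00060128-1 were higher in the knockout. Capitals mark a poly(A) signal (AATAAA or ATTAAA), the motif that precedes the cleavage site of most mRNAs and marks the end of a transcript; only Z00026847-1 of these holds one.
Z00054665-1: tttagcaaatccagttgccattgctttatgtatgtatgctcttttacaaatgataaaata
Z00008117-1: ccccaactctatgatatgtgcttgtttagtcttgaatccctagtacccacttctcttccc
Z00023904-1: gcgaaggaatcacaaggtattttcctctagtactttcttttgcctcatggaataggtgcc
Z00071322-1: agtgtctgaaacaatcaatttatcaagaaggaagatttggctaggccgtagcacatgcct
Z00028697-1: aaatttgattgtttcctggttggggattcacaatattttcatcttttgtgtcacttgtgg
Z00043839-1: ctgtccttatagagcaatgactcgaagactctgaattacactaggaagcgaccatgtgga
Z00026847-1: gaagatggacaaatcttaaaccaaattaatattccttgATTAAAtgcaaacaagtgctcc
Z00011465-1: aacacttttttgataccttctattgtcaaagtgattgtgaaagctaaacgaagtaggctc
Z00060128-1: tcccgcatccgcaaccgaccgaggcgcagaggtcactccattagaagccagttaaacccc

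At E16.5 more probes were lower than higher in the beta-catenin knockout. By limma's moderated test with adjusted p under 0.05, 144 probes (0.477% of those tested) differed, of which 107 (0.354%) were lower and 37 (0.122%) higher in the knockout. Of the 144, 122 were well above background on at least 1 array of each genotype, as were 96.9% of all tested probes. The 122 were 96 lower with a median fold of 2.08 and 26 higher with a median fold of 2.29. At least 2-fold changes numbered 53 and 16 of these, and at least 4-fold changes 7 and 1. The other 22 had a level in 1 genotype, or in both, that is only bounded. At an unadjusted p under 0.05 there were 3651 probes (12.1% of those tested). Knockout and wild-type arrays did not overlap for any of the 144, as for 48.5% of all tested probes. The threshold lay between Z00036412-1 (log2 difference 0.94, adjusted p = 0.0498) and Z00009506-1 (0.61, adjusted p = 0.0502). The count rests on each of the 4 arrays: it was 65 without knockout replicate 1, 21 without knockout replicate 2, 74 when wild-type replicate 1 was dropped and 47 without wild-type replicate 2, where 22 were higher and 25 lower. The 4 arrays fitted alone, with 2 residual degrees of freedom, gave 3 calls, all lower. Among the 3 were Z00054665-1 and Z00049196-1 (limma adjusted p = 0.00118 and 0.0234), neither well above background on a knockout array, so their knockout levels are only bounded. Without a filter on dim probes there were 179 higher and 231 lower.

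**Figure D1:**
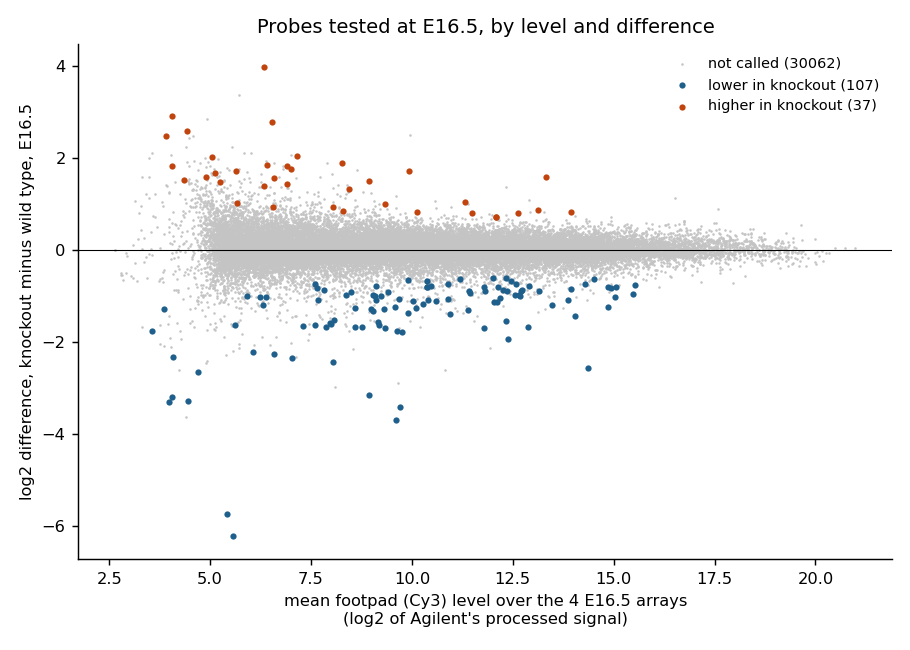
Log2 difference between knockout and wild type at E16.5 (vertical axis) against the mean Cy3 level of the 4 arrays (horizontal axis, log2 of Agilent's processed signal), 1 point per tested probe. The 107 lower probes (blue) extend over most of the range of levels, while many of the 37 higher probes (orange) lie at low levels; grey points were not called.

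Among the lower probes measured above background in both genotypes, Z00008117-1 had the largest difference. Its level was 1.04 and 0.48 on the knockout arrays against 4.50 and 4.41 on the wild-type arrays, a 13.0-fold decrease (log2 difference -3.70, SE 0.28, limma adjusted p = 0.00353). Both knockout arrays lay far below both wild-type arrays, and the gap between genotypes was several times the gap within either, which a choice by limma's call favours. Z00028697-1 was at 3.20 and 2.40 in the knockout and at 5.92 and 6.48 in wild type, 10.5-fold lower (adjusted p = 0.0259). That call was lost in 6 of 16 other settings, with adjusted p up to 0.215 without knockout replicate 2. Z00068163-1 was at 0.83 and -1.11 in the knockout, against 3.07 and 2.94 in wild type (8.85-fold lower, adjusted p = 0.0467), with its knockout arrays well apart. It lost its call in 8 of 15 settings, and with normexp and loess its difference was -2.33.

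The remaining 3 of these probes had smaller differences. Z00005948-1 lay under the reference on all 4 arrays, at -5.05 and -5.16 in the knockout and at -3.03 and -2.06 in wild type (5.89-fold lower, limma adjusted p = 0.0103), a call lost in 4 of 16 settings. Z00023904-1 was at -0.39 and -0.04 in the knockout against 2.22 on both wild-type arrays (5.40-fold lower, adjusted p = 0.00353). Z00071322-1 was at -2.27 and -1.66 against 0.35 and 0.42 (5.11-fold lower, adjusted p = 0.00353). The last 2 kept their call in every other setting except the fit on the 4 arrays alone, where adjusted p was 0.0657 and 0.0847. Their size depended on the processing, with differences of -1.51 and -1.03 under normexp and loess against -2.43 and -2.35.

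For the other 6 of the 12 lowest probes, neither knockout array was well above background, so the knockout level is only bounded. Folds are then written as "at least", from the wild-type mean against the higher of the dim probe's own signal and the lowest signal well above background on each array. These bounds were computed per channel after normexp, loess and Aquantile scaling and are open to dye bias, since dyes were not swapped. Here and below, an adjusted p printed beside a bound tests the difference in ratios, dim values included, and not the bound. Z00054665-1 was at -1.26 and -1.24 in the knockout and at 4.98 and 4.92 in wild type, at least 2.50-fold lower (limma adjusted p = 0.000516), the smallest adjusted p at this stage. It stayed called in each of 16 other settings, up to an adjusted p of 0.0288 with the replicate block. Z00070655-1, a separate probe code with the same 60 bases, was at -0.31 and -1.19 against 5.62 and 4.31, at least 2.28-fold lower (adjusted p = 0.00353). The repeat spots of this sequence thus gave the same direction with a difference of -5.72 against -6.20.

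The remaining dim probes carried smaller bounds. Z00077373-1 was at 0.30 and -0.23 in the knockout and at 3.04 and 3.59 in wild type, at least 1.24-fold lower (limma adjusted p = 0.0245). Z00022557-1 was at 0.73 and 0.00 against 3.52 and 2.51, at least 1.37-fold lower (adjusted p = 0.0273). Z00029510-1 was at 0.00 and -0.37 against 2.07 and 2.20, at least 1.11-fold lower (adjusted p = 0.0103). Z00049196-1 was at exactly 0.00 on both knockout arrays against 3.42 and 3.17, at least 1.07-fold lower (adjusted p = 0.0219). A log ratio of exactly 0 is what Feature Extraction can assign when a spot cannot be told from background, so such a value is no measured balance with the reference. It occurred on an E16.5 array for 8 of the 144 called probes and for 0.152% of all tested. Where both arrays of a group held it, as for Z00049196-1, their SD was 0, which lowered the estimated spread behind limma's p-value. That spread is shared over the 6 groups, so such pairs at E15.5 or E17.5 lowered it too. The count of 8 leaves those stages out. Z00070655-1, Z00077373-1, Z00022557-1, Z00029510-1 and the higher probes Z00026695-1 and Z00026847-1 each held such a pair at another stage. With normexp and loess in place of Agilent's ratios, the differences of Z00077373-1 and Z00029510-1 shrank to -0.45 and -0.39 and their calls were lost (adjusted p = 0.0971 and 0.0704). Over the other settings Z00077373-1, Z00022557-1, Z00029510-1 and Z00049196-1 lost their call in 5 to 7 of 16.

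**Figure D2:**
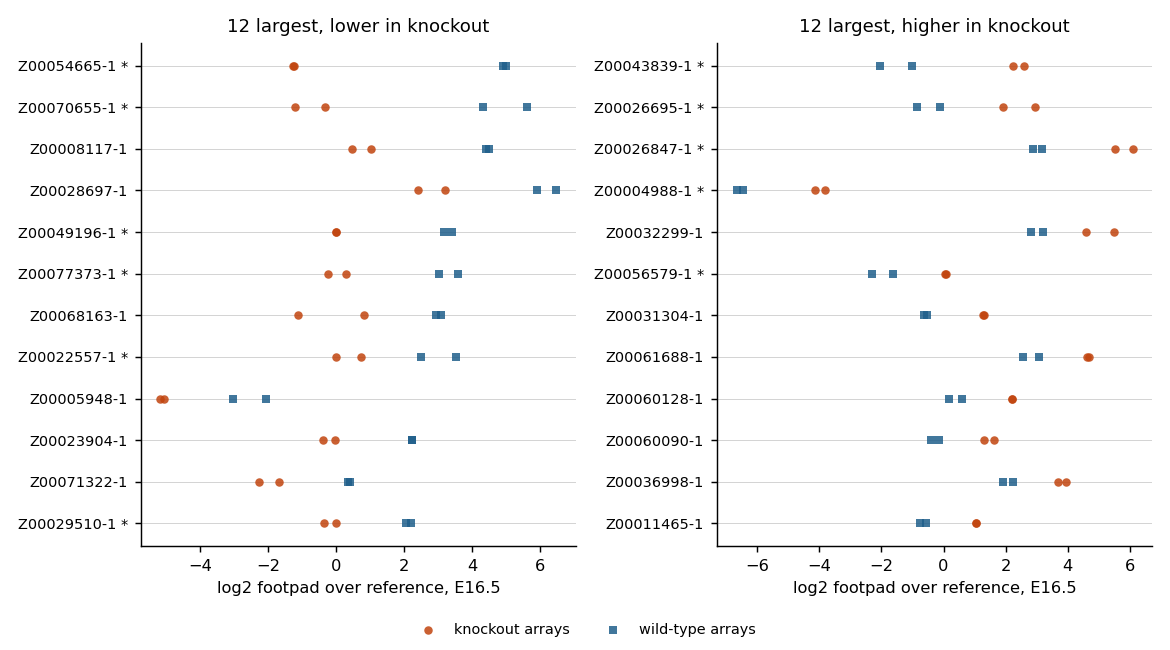
Log2 footpad over reference on each E16.5 array for the 12 probes with the largest differences in each direction, circles for the 2 knockout and squares for the 2 wild-type arrays. An asterisk marks a probe not well above background on either array of 1 genotype. The groups do not overlap for any of the 24, which is how they were chosen, and Z00068163-1 has the widest spread between knockout arrays.

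Of the higher probes, the first 5 described were only bounded in wild type, and the folds below are not ranked against those of probes measured in both genotypes. Z00043839-1 was at 2.61 and 2.23 on the knockout arrays and at -2.05 and -1.03 on the wild-type arrays, where it was not well above background, so it was at least 2.48-fold higher in the knockout (limma adjusted p = 0.00500). Its call was lost with the replicate block and in the fit on the 4 arrays alone (adjusted p = 0.0651 and 0.0847). Z00026847-1 was at 6.09 and 5.53 against 3.18 and 2.89, at least 1.92-fold higher (adjusted p = 0.0127). It lost its call in 6 of 16 settings, all 4 fits that leave out an E16.5 array among them, with adjusted p up to 0.0732. Z00026695-1 was at 1.91 and 2.94 against -0.86 and -0.10, at least 1.05-fold higher (adjusted p = 0.0155), a call lost in 5 of 16 settings. Z00004988-1 was at -4.14 and -3.80 against -6.44 and -6.66, at least 1.13-fold higher (adjusted p = 0.0254), and with normexp and loess its difference was 0.14 with an adjusted p of 0.596. Z00056579-1 was at 0.04 and 0.07 against -2.30 and -1.62, at least 1.19-fold higher (adjusted p = 0.0391). It lost its call in 9 of 15 other settings, the most of these 24 probes.

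Other higher probes were above background in both genotypes. Z00031304-1 was at 1.29 on both knockout arrays and at -0.64 and -0.54 in wild type (3.69-fold higher, limma adjusted p = 0.0224). Z00060128-1 was at 2.22 and 2.20 against 0.61 and 0.17 (3.52-fold, adjusted p = 0.00768). Z00060090-1 was at 1.31 and 1.64 against -0.39 and -0.16 (3.37-fold, adjusted p = 0.0224). In each of the 3 the knockout arrays lay close together, well above both wild-type arrays. With normexp and loess their differences were 1.18, 0.96 and 0.83 against 1.88, 1.81 and 1.75, and their calls were lost in 5, 3 and 6 of 16 settings. Z00011465-1 was at 1.06 and 1.04 against -0.56 and -0.75 (3.25-fold, adjusted p = 0.00353), and it was the only higher probe of the 24 to keep its call in every setting except the fit on the 4 arrays alone.

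For 3 further higher probes the reference signal, from RNA common to all arrays, differed by more than the footpad signal did. Z00032299-1 was at 4.59 and 5.50 against 3.21 and 2.81 (4.10-fold higher, limma adjusted p = 0.0224), but its footpad signal alone differed by 0.77 and its reference signal by -1.27. Z00061688-1, at 4.61 and 4.70 against 3.08 and 2.55 (3.58-fold, adjusted p = 0.0117), differed by 0.75 in footpad and -1.09 in reference signal. Z00036998-1, at 3.94 and 3.67 against 1.93 and 2.25 (3.28-fold, adjusted p = 0.0103), differed by 0.63 and -1.09. In all, the reference accounted for the larger share of the ratio difference at 5 of the 144 probes. The reference signal differed at an unadjusted p under 0.05 for 27.8% of the called probes and for 4.76% of all tested, and by limma's adjusted p it differed for 6 of all tested and 1 of the 144. The part of the reference channel in the other ratio differences was not tested. The footpad signal alone gave the same direction for 107 of 107 lower and 36 of 37 higher probes. That signal is part of the ratio by which the probes were chosen, so a shared direction is largely fixed by the choice.

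A group of 11 probes kept an adjusted p under 0.05 in every setting run apart from the fit on the 4 arrays alone. Besides Z00054665-1, Z00070655-1, Z00008117-1, Z00023904-1, Z00071322-1 and Z00011465-1, these were, named here after their values were seen, Z00075496-1, Z00057782-1, Z00070179-1, Z00024757-1 and Z00034687-1. Z00057782-1 had the highest level over the reference of these 5, at 3.76 and 3.60 in the knockout and at 5.46 and 5.24 in wild type (log2 difference -1.67, limma adjusted p = 0.00353). Z00024757-1 was at 2.11 and 1.89 against 3.75 and 3.48 (-1.62, adjusted p = 0.00353). Z00075496-1 was under the reference in both genotypes, at -2.55 and -2.35 against -0.71 and -0.67 (-1.76, adjusted p = 0.00431).

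Z00070179-1 was at -2.81 and -2.63 against -1.03 and -1.11 (log2 difference -1.65, limma adjusted p = 0.00622), with -0.79 under normexp and loess. Z00034687-1 was at -5.84 and -5.77 against -7.27 and -7.31, higher in the knockout by 1.48 (adjusted p = 0.00353). For each of these 5 probes the difference between genotypes was several times that between replicates, which their choice by repeated calls favours. All 5 were well above background on all 4 arrays. So were 120 of the 144 called probes (83.3%), against 27988 of all 30206 tested.

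Some probes share part of their sequence and may report the same transcript. Their arrays and part of their bases are the same, so they are not replicates of a sample. Of 1110 pairs of tested probes sharing at least 20 bases, 6 held a called probe, and both members were called in 5. The shared stretch is in capitals in the pairs below, shown so that the overlap behind each pair of values can be seen.
Z00025579-1: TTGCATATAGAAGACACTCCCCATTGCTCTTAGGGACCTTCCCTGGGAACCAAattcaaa
Z00074497-1: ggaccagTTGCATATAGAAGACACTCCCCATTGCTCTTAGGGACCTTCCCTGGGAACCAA
Z00042679-1: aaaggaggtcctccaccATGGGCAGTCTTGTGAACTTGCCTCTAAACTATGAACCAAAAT
Z00061036-1: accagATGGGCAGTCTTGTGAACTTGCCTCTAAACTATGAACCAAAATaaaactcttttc
Z00006580-1: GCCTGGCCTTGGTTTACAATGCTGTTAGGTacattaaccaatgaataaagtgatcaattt
Z00045122-1: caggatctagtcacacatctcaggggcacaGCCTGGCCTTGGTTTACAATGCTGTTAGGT
Z00034984-1: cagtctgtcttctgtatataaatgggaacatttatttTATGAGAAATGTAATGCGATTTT
Z00057782-1: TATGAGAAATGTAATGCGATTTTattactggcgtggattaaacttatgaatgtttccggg

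With 53 shared bases, Z00025579-1 and Z00074497-1 fell by 0.81 and 0.83 in the knockout (limma adjusted p = 0.0371 and 0.0428). Z00042679-1 and Z00061036-1, with 43 shared bases, fell by 0.98 and 0.79 (adjusted p = 0.0239 and 0.0246). Both members of each pair were lower by nearly the same amount. The pair Z00006580-1 and Z00045122-1, with 30, was higher by 0.81 and 0.87 (adjusted p = 0.0155 and 0.0103), with knockout levels of 0.81 to 0.95 and wild-type levels of 0.04 to 0.07. Z00034984-1 and Z00057782-1, with 23, fell by 0.88 and 1.67 (adjusted p = 0.0272 and 0.00353), the same direction with unequal size. In the 6th pair, Z00032919-1, well above background on 1 knockout and no wild-type array, was at least 1.04-fold higher (adjusted p = 0.0103), and Z00050391-1, with 22 shared bases, differed by 0.22 (adjusted p = 0.894). With normexp and loess the difference of Z00032919-1 was 0.02. Over all 1110 pairs the median absolute gap between the 2 differences was 0.05, and the differences correlated at 0.774, a description across probes that share bases.

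The lower probes were mostly lower at the other stages as well. The E15.5 and E17.5 arrays are other samples, but they entered the filter and the estimate of each probe's spread, so calls at different stages are not independent. Of the 107, 100 had a negative difference at E15.5 and 102 at E17.5, with medians of -0.78 and -0.62, against 52.9% and 49.4% negative among all tested probes. At E15.5, 59 of them passed limma's test in the same direction, where 1.5% of all probes were called lower, and 40 did so at E17.5, where 0.285% were. Both other stages called 24, E15.5 but not E17.5 called 35, E17.5 but not E15.5 called 16, and 32 were called at neither. Some of the 107 had no E15.5 array well above background, so their sign there is not measured. Z00049196-1, Z00077373-1, Z00022557-1 and Z00029510-1 were among these.

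The 37 higher probes had a positive difference more often at E17.5 than at E15.5. At E17.5, 36 were positive (median 0.99), against 50.6% of all tested, and 21 were called higher, against 0.285%. At E15.5, 23 were positive (median 0.47), against 47.0% of all tested, and 12 were called higher, against 0.722%. Some had no E15.5 array well above background, so their sign there is not measured. Among these were Z00026695-1, with a ratio of 0.00 on each array of that stage, Z00004988-1 and Z00056579-1. Both other stages called 9 of the 37, E15.5 without E17.5 called 3, E17.5 without E15.5 called 12, and 13 were called at neither. A single probe, Z00023984-1, named after its values were seen, was called lower at E15.5, but no array of that stage was well above background for it, so no direction is read from it there. The stages were hybridised on separate slides, and a change between stages cannot be told apart from one between slides.

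**Figure D3:**
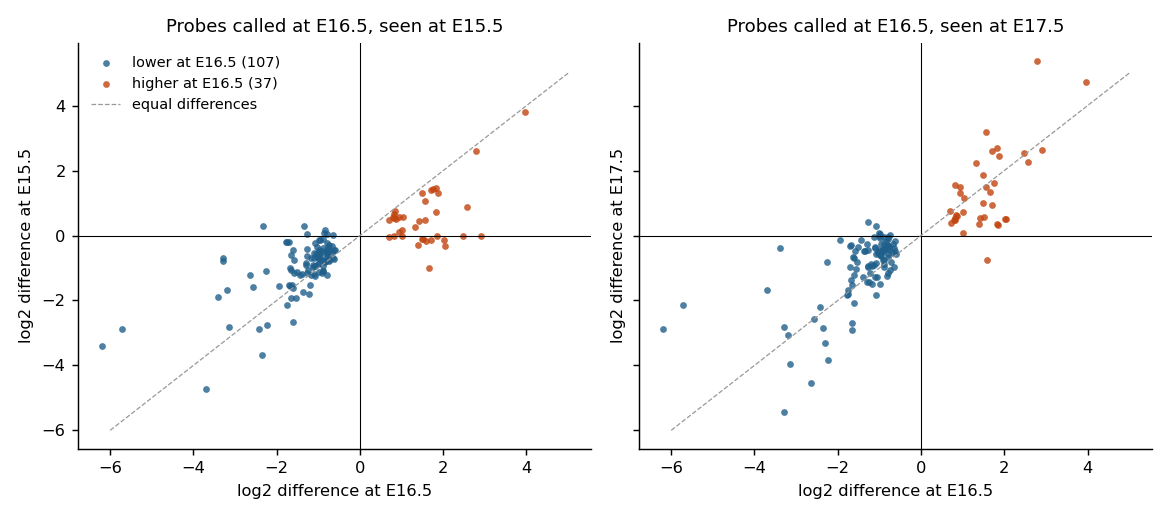
Log2 difference between knockout and wild type at each other stage (E15.5 left, E17.5 right) against the E16.5 one for the 144 probes called at E16.5, 107 lower in blue and 37 higher in orange. The sign is kept by 100 lower and 23 higher probes in the left panel and by 102 and 36 in the right one; the dashed line marks equal differences, and probes near background are plotted at their ratios.

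A test of whether the knockout difference at E16.5 departed from its mean over E15.5 and E17.5 called 0 probes by limma (0% of those tested). At an unadjusted p under 0.05 there were 1827, with a lowest adjusted p of 0.307. The lowest belonged to Z00059502-1, where the difference was 0.21 at E16.5 against -1.40 at E15.5 and -1.08 at E17.5. Other settings called 0 to 9 probes with the filter on dim probes and 62 without it. The contrasts between stages that follow were therefore not called by that test.

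Single probes followed different courses, with no contrast between stages called. Z00028697-1 had wild-type levels of 5.69 and 3.96 at E15.5, 5.92 and 6.48 a day later, and 10.40 and 10.51 at E17.5. In the knockout it was at 2.88 and 2.98, then 3.20 and 2.40, then 10.07 and 10.06. The difference was thus -1.90 at E15.5 (limma adjusted p = 0.0798) and -0.40 at E17.5 (adjusted p = 0.748), with both genotypes near the same high level at the last stage. Z00008117-1 was lower at every stage. At E15.5, where its knockout signal was not well above background (-0.68 and -1.41, against 3.82 and 3.53 in wild type), it was at least 6.27-fold lower (adjusted p = 0.000833). At E17.5 its knockout level was 4.06 and 3.56 against 5.53 and 5.46, a difference of -1.68 (adjusted p = 0.0414).

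Z00077373-1, Z00022557-1 and Z00029510-1 were well above background on no array at E15.5 and on both wild-type but neither knockout array at E16.5 and again at E17.5. Their knockout levels are thus only bounded at each stage. At E17.5 Z00077373-1 was at 5.61 and 4.92 in wild type, with knockout ratios of 0.00 and -0.34, and was at least 1.82-fold lower (limma adjusted p = 0.00223). Z00022557-1 was at 4.47 and 4.63 in wild type and 0.00 on both knockout arrays, at least 1.56-fold lower (adjusted p = 0.00217). Z00029510-1 was at 3.00 and 2.86 against 0.00 and -0.73, at least 1.30-fold lower (adjusted p = 0.00148).

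Other probes kept a call at all stages in 1 direction. Z00023904-1 was lower by -2.43 at E16.5 and -2.21 at E17.5, and at E15.5, where its knockout signal was not well above background, by at least 2.65-fold (limma adjusted p = 0.00353, 0.00328 and 0.00177). Z00071322-1 was lower by -2.35 at E16.5 and -2.84 at E17.5 and at least 1.73-fold lower at E15.5, again against a dim knockout signal (adjusted p = 0.00353, 0.000679 and 0.000674). Z00011465-1, measured in both genotypes throughout, was higher by 1.40, 1.70 and 2.60 over the 3 stages in order (adjusted p = 0.00495, 0.00353 and 0.000313).

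Higher probes with a dim wild-type signal are again given by bounds. Z00043839-1 was not well above background on any wild-type array and was at least 1.53-fold higher at E15.5 and at least 2.47-fold higher at E17.5 (limma adjusted p = 0.00327 and 0.00109). Z00060128-1 was dim in wild type at both other stages, where it was at least 1.25-fold and at least 1.33-fold higher (adjusted p = 0.0154 and 0.000679). Z00026847-1 was measured in both genotypes at E15.5, at 7.10 and 6.95 in the knockout and 4.67 and 4.20 in wild type, a difference of 2.59 (adjusted p = 0.0161). At E17.5 its wild-type ratio was 0.00 on both arrays, not well above background, and it was at least 1.88-fold higher in the knockout (adjusted p = 0.000493).

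**Figure D4:**
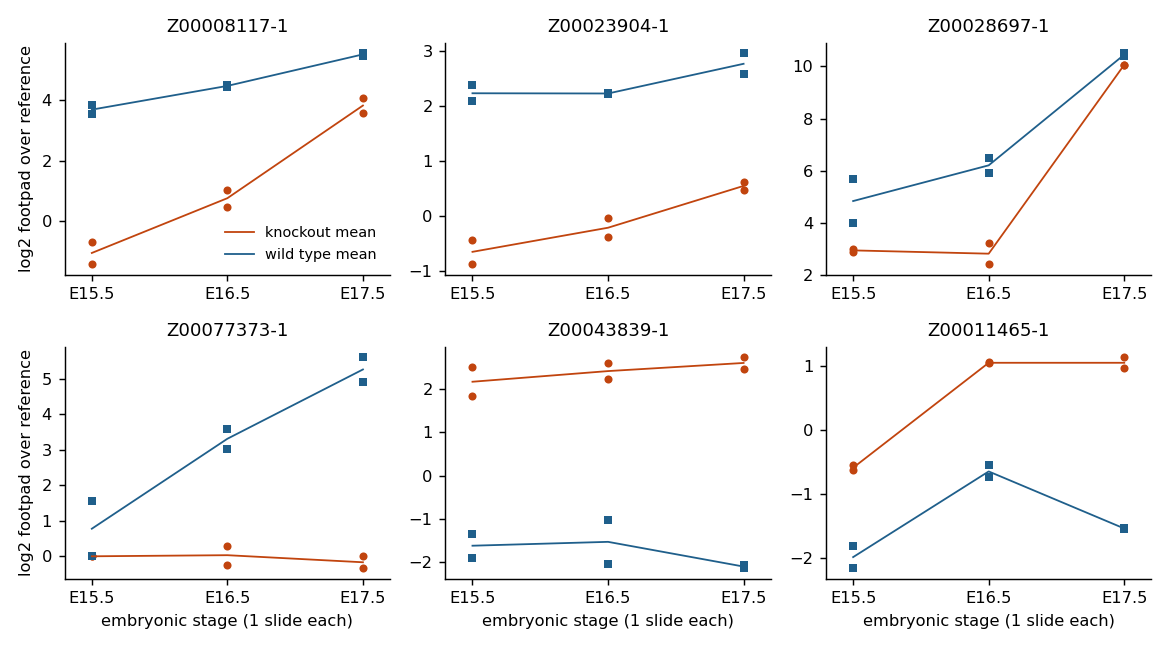
Log2 footpad over reference at 3 stages for 6 of the probes described, with 1 point per array and lines through the means of 2 arrays, knockout in orange and wild type in blue; the vertical scale differs between panels. Z00028697-1 is near 10 in both genotypes at E17.5, Z00077373-1 is not well above background in the knockout and lies near 0 there, and Z00043839-1 (dim in wild type) and Z00011465-1 are higher in the knockout at each stage.

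Lower probes were frequent among those with higher wild-type levels at E17.5 than at E15.5. These stages lay on separate slides, so this change cannot be told apart from one between slides. From E15.5 to E17.5, in wild-type arrays that entered the E16.5 test only through the filter and the estimate of spread, 2430 of the tested probes (8.04%) were higher by at least 2-fold, and 50 of the 107 lower probes were among them. Of this class 2.06% were called lower at E16.5, against 0.354% of all tested, while 0.165% (4 probes) were called higher. Among the 2403 probes that were at least 2-fold less at E17.5 than at E15.5, 3 (0.125%) were called lower and 4 (0.166%) higher. Of all tested, 0.354% were called lower and 0.122% higher. The median wild-type course was 0.92 for the lower probes, 0 for the higher ones and 0.01 for all. The median difference of the rising class was -0.05 against 0.02 for all probes, and most of its members were not called. Under normexp and loess 172 of its 2430 members were called lower and 10 higher, against 445 and 137 of all 30206 tested.

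Within the 50 lower probes that increase in wild type, median wild-type levels were 0.73, 1.99 and 2.85 over the 3 stages in order. In the knockout they were -0.19, 0.10 and 1.68. In that order the median difference was -0.91, -1.27 and -0.55. Both the E16.5 difference and the wild-type rise from E15.5 to E17.5 chose these probes. The rise in wild type is thus fixed by the choice, and the differences at the other stages share its wild-type arrays. Of the 50, dim probes included, 48 had a negative difference at each of the other stages, 29 were called lower at E15.5 and 16 at E17.5. The 57 other lower probes had medians of -0.67, -0.97 and -0.71, with 30 called at E15.5 and 24 at E17.5.

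Lower probes were also frequent among transcripts enriched in footpad relative to the reference. Of 3490 probes at least 4-fold over the reference in wild type at the other stages, 47 (1.35%) were called lower and 5 (0.143%) higher at E16.5. Of 2881 at least 4-fold under it, 8 (0.278%) were called lower and 4 (0.139%) higher, near the 0.354% and 0.122% of all tested. The median wild-type level at those stages was 1.77 for the lower probes, -0.34 for the higher ones and 0.04 for all. The 2 classes overlap with each other and with signal level, and the part of the signal level in these counts was not tested.

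**Figure D5:**
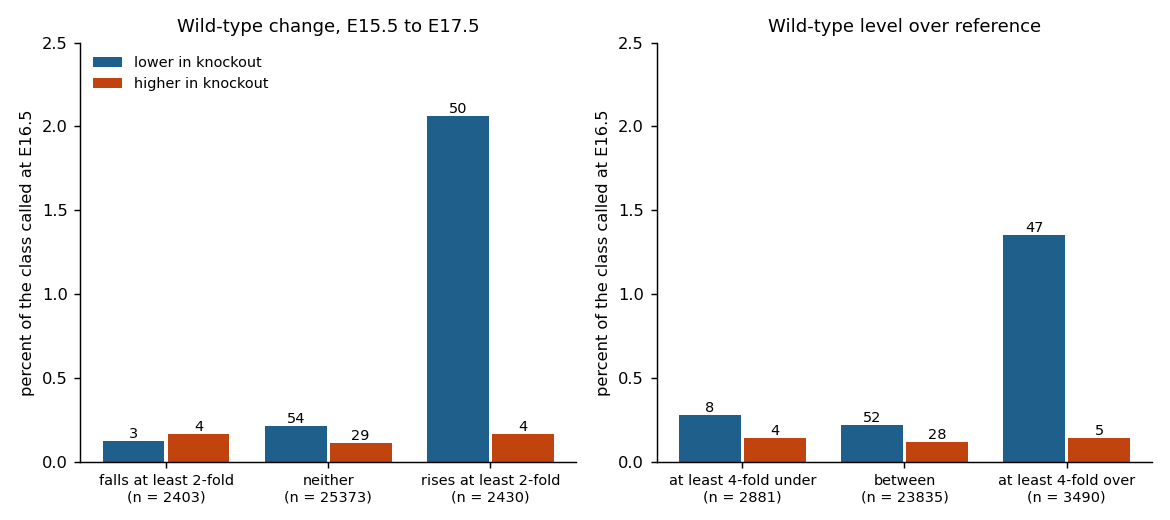
Percent of tested probes called lower (blue) or higher (orange) in the knockout at E16.5. Classes are by the change in wild type from E15.5 to E17.5, stages on separate slides (left), and by the wild-type level over the reference at those stages (right). Numbers on the bars are counts of probes; the rising class reaches 2.06% and the most footpad-enriched class 1.35% called lower.

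At E16.5, 660 tested probes were well above background in the knockout alone and 138 in wild type alone, beside the slightly larger share of spots above background on the knockout arrays. Of these, 11 were called higher (29.7% of the higher probes, from 2.18% of those tested) and 10 were called lower (9.35% of the lower probes, from 0.457%). The direction of a call in such a class is fixed by where the signal was detected, so the counts say only how many calls rest on a bounded level. The 10 probes of the E1A spike-in control differed by -0.51 to 0.28.

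By sequence, the AATAAA poly(A) signal occurred in 13 of the 107 lower probes (12.1%), in 1 of the 37 higher ones and in 7.46% of all tested probes. ATTAAA, counted where AATAAA was absent, occurred in 7 lower and 4 higher probes and in 3.03% of all; both motifs were searched on the probe's strand. GC content had a median of 45.0% in the lower probes, 43.3% in the higher ones and 45.0% in all. The median difference was 0.09 in the third of probes with the lowest GC content and -0.04 in the third with the highest.

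A few probes could be tied to genes because their sequence, or at least its first 30 bases, matched the stretch around a gene's start given by RefSeq (GRCm38.p6). Of 249 probes with a sense match of at least 30 bases, 162 were tested. By limma 0 of the 162 were called, against 0.477% of all tested probes. An unadjusted p under 0.05 was found for 14 of the 162, against 12.1% of all tested. The placed probes include 7 of the 453 genes on lists of pathway and cell type markers. For 3 of the 7 the probe lies wholly before the annotated gene start, and no level of the gene is given from it. Acta2, the smooth muscle actin of myoepithelial cells and vessel walls, was at 0.51 and 0.28 in the knockout against 0.24 and 0.53 in wild type (adjusted p = 0.994), with overlapping arrays. Madcam1, a cell adhesion molecule, was at 1.16 and 0.67 against 0.87 and 0.65 (adjusted p = 0.819), overlapping as well. The Acta2 and Madcam1 matches covered 58 and 34 of the 60 bases, and the rest of each probe was not checked. Hspa1a was well above background on 1 knockout and 1 wild-type array (limma adjusted p = 0.873). Uty, on the Y chromosome, was so on 1 wild-type array alone (adjusted p = 0.933), and the sex of the embryos is not read from it. With so few placed probes, neither the Wnt, Eda and Shh lists nor the markers of epidermis and other tissues were analysed here.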

How the data were processed

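Per the labels, footpad RNA (Cy3) and the common reference (Cy5) shared each of 12 arrays without dye swaps. Per the file headers, the authors' scans were quantified in Agilent Feature Extraction 9.5.1.1. Files deposited per array give spot intensity in both channels and the program's LogRatio, a log10 of the red over the green signal, already background-corrected and dye-normalized. Values of the authors' deposited series table were also on a log10 scale. The sign of LogRatio was turned and its size multiplied by 3.322, giving log2 footpad over reference, averaged over repeat spots; 1417 control spots were left out. Probes were tested if Cy3 was well above background on at least 2 of 12 arrays (11638 left out) and no array had an outlier spot (162 left out). Saturated spots (8) were kept. limma 3.58.1 (R 4.3.3) fitted 6 group means, with p-values adjusted by Benjamini-Hochberg over all tested probes (degrees of freedom: 6 residual, 2.68 prior); the procedure was tested on simulated data. The number of arrays limits the precision.

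Named probes were the 12 highest and 12 lowest folds among those with adjusted p under 0.05 whose arrays did not overlap and which were well above background on both arrays of at least 1 genotype. The members, lists and classes were chosen with earlier results of these data known. Gene names were to come from protein matches, for which no table was at hand; matching probes to RefSeq gene-start windows was added later. Same-numbered samples deviated together at 0.34, 0.12 and 0.04 (correlation across probes, stages in order), and the numbers were not taken to pair them. Alternatives were the filter, normexp (offset 50) with loess, median centring, Cy3 alone, the authors' values, fewer arrays, a replicate block, array weights, an intensity trend, outlier spots kept and each E16.5 array left out.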

Additional observations from a re-analysis of the deposited data

Results flagged for a closer look

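For 2 of the named probes the ratios of the knockout arrays lay on opposite sides of the wild-type arrays at E15.5 and E16.5. Z00032299-1 was higher in the knockout at E16.5 by 2.04 but differed by -0.32 at E15.5, where both knockout arrays (4.82 and 4.51) lay below both wild-type arrays (5.13 and 4.85). Its E16.5 difference was 0.77 in footpad signal and -1.27 in reference signal, and its call was lost with Cy3 alone (limma adjusted p = 0.0840). Z00056579-1 was higher by 2.02 at E16.5 and differed by -0.15 at E15.5, with knockout levels of -2.17 and -2.02 below both wild-type ratios; no E15.5 array was well above background for it, so that order carries no measured direction. The E15.5 differences were not called by limma (adjusted p = 0.502 and 0.799). The difference between E16.5 and E15.5 alone was not tested; against the mean of both other stages, limma's adjusted p was 0.613 for each. Groups of 2 arrays were too small for a test of single arrays that stand apart.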

How the results depend on the processing

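Against 144 calls (37 higher, 107 lower), leaving out 1 E16.5 array gave 21 to 74 calls, 8 to 22 higher and 13 to 59 lower, and 0 to 9 in the test against the other stages. With the replicate block there were 55 calls (9 higher, 46 lower). The 4 arrays alone gave 3 (0 higher, 3 lower by limma). Without a filter there were 410 (179 and 231), with normexp and loess 582 (137 and 445), with Cy3 alone 328 (77 and 251) and with array weights 296 (82 and 214). In the test against the other stages, where 0 were called, no filter gave 62, Cy3 alone 2 and the authors' values 1. Median centring, the authors' values, a filter over the E16.5 arrays, an intensity trend, outlier spots kept and the fit without the E15.5 arrays gave 140 to 152 calls. No named probe changed direction in any setting run, but most settings could not show a change. Named probes were chosen without overlap between genotypes, so leaving out an E16.5 array keeps the sign. Other filters, fits and sets of arrays reused the same ratios. Only normexp with loess, Cy3 alone, the authors' values and median centring changed the values themselves. The causes of lost calls were not tested. Of the 24 named probes, 17 kept their call with normexp and loess, 21 with Cy3 alone and 9 with the replicate block. The test against the other stages cannot be made on the E16.5 arrays alone or without E15.5. Counts by gene list and the looser protein match were not run, since genes are unnamed. Signal near background limits the folds of dim probes, and 2 arrays a group limit all calls.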
